A study of Mus musculus with 2 samples.

Results

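The genes described here encode the proteins of the mitochondrial ribosome. They were taken as all genes whose symbol begins with Mrpl or Mrps followed by a number, with at least 1 protein-coding transcript and without the pseudogene suffix. This rule gave 78 of the 55536 annotated genes. RNA levels were measured by total RNA-seq in the gastrocnemius, the large calf muscle, of male B6CASTF1/J mice, the first-generation offspring of C57BL/6J and CAST/EiJ parents, at 14 days of age. The series held 1 group of 2 biological replicate libraries, each of 300 ng of RNA plus synthetic ERCC RNAs as a control, and no treatment or second condition. The labels speak of 3 males and give both libraries the same donor identifier, so whether the libraries came from separate animals or from a pool is not settled by them. Differences between the libraries therefore describe only these 2 libraries and may be technical. Their p-values are set against counting error alone.

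The mitochondrial ribosome translates the few messenger RNAs of the mitochondrial genome, which encode core subunits of the respiratory chain and ATP synthase. Its ribosomal RNAs are transcribed inside the mitochondrion, whereas all of its proteins are encoded in the nucleus, made in the cytosol and imported. Many of its proteins have a bacterial homologue and many others are found only in mitochondria. In skeletal muscle the product of this machinery is needed for oxidative ATP supply.

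Of the 78 genes, 51 belonged to the large subunit, which forms peptide bonds, and 26 to the small subunit, which reads the messenger RNA. Mrps30 and Mrps18a carry small subunit names but were counted with the large subunit, where structures place them. Mrps36 was kept apart, since its protein is known as a part of the 2-oxoglutarate dehydrogenase complex of the citric acid cycle. The genes lay on 17 chromosomes, with 11 on chromosome 11, 8 on chromosome 17 and 7 on chromosome 6.

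The gene tables held 40825601 expected counts in replicate 1 and 37329025 in replicate 2, and the 78 genes took 0.163% and 0.172% of them. The median gene of the set had 729 counts in replicate 1 and 730 in replicate 2. All 8 markers of fast muscle were found at high level, with summed levels of 114384 and 123507 TPM (a share of all transcripts, corrected for transcript length). Markers of slow fibres summed to 829 and 766 TPM, of endothelium to 142 and 124 TPM, of fibroblasts to 2530 and 2046 TPM, of smooth muscle and pericytes to 311 and 302 TPM, and of erythroid cells to 977 and 1347 TPM. Macrophage markers summed to 21.5 and 21.2 TPM, Schwann cell markers to 56.6 and 83.9 TPM, lymphocyte markers to 0.17 and 0.42 TPM and adipocyte markers to 0.71 and 5.71 TPM. In bulk tissue, fewer cells of a type and less RNA per cell cannot be told apart.

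Mitochondrial ribosomal protein genes were expressed throughout at a moderate level. All 78 had a mean level over 1 TPM, 77 were above 5 TPM, 49 above 20 TPM, 13 above 50 TPM and 5 above 100 TPM. The median over the set was 24.2 TPM in replicate 1 and 23.4 TPM in replicate 2, against medians of 7.43 and 7.08 TPM over the 12156 genes whose mean reached 1 TPM. The 10th percentile of the mean level was 12.2 TPM and the 90th 62.5 TPM, a ratio of 5.11. The same ratio was 6.03 for cytosolic ribosomal protein genes, 8.77 for nuclear oxidative phosphorylation genes and 29.9 over all genes at 1 TPM or more.

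The subunits had close medians. Large subunit genes had a median of 23.6 TPM in replicate 1 and 23.1 TPM in replicate 2, and small subunit genes 24.9 and 24.1 TPM. The ratio of the large to the small subunit median was 0.949 and 0.959. Genes with a bacterial homologue, 46 in number, had medians of 24.6 and 23.97 TPM, and the 31 mitochondrion-specific genes 22.4 and 22.2 TPM.

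**Figure D1:**
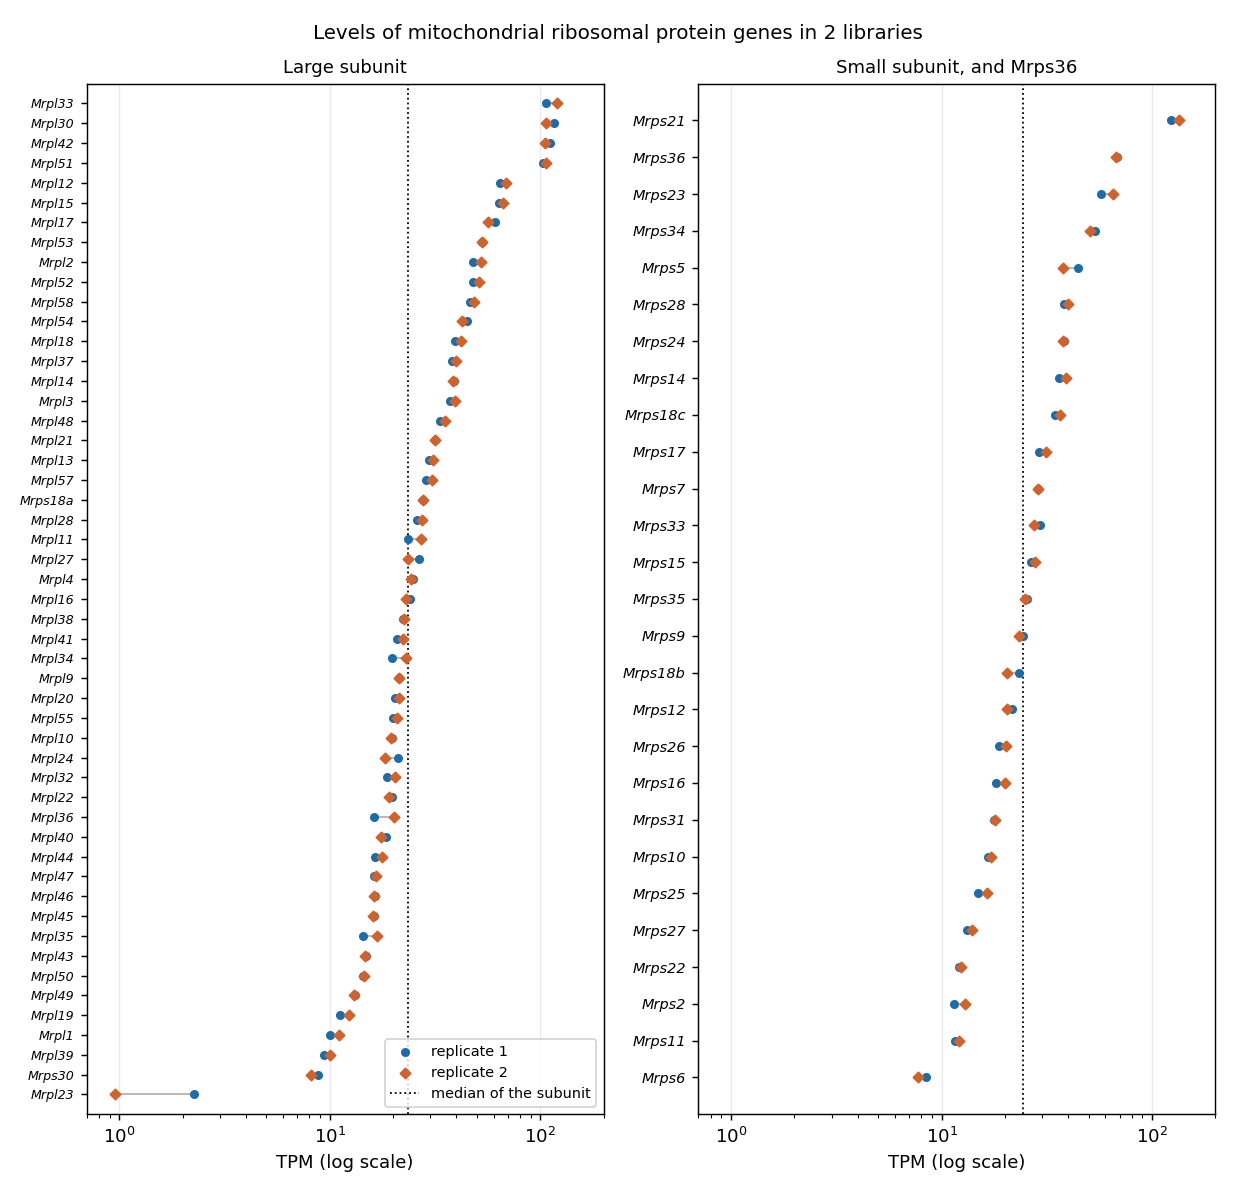
Level of each of the 78 genes (rows) in TPM on a log axis, with the large subunit at left and the small subunit and Mrps36 at right; circles are replicate 1, diamonds replicate 2, and the dotted line is the median of the subunit's mean levels. The libraries lie close together for nearly every gene, and Mrpl23 sits apart at the bottom with 2.26 and 0.96 TPM.

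Among small subunit genes Mrps21, whose protein is a homologue of a bacterial small subunit protein, had the highest level of the whole set in the gene tables. It had 123 and 135 TPM in the first and the second replicate (mean 129 ± 7.88 TPM; SD, n = 2), above 95.8% of the genes at 1 TPM or more. A second quantification, described below, gave Mrps21 a mean of 156 TPM, below Mrpl33 (189 TPM) and Mrpl30 (165 TPM). Mrps23, a mitochondrion-specific protein, had 57.2 and 65.4 TPM. The lowest small subunit gene was Mrps6, at 8.44 and 7.71 TPM, followed by Mrps11 at 11.6 and 12.03 TPM and Mrps2 at 11.4 and 12.9 TPM. Mrps11 and Mrps2 exchanged places between the libraries, and their order is within the spread.

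Large subunit genes were led by Mrpl33, Mrpl30, Mrpl42 and Mrpl51. Mrpl33 had 107 and 119.8 TPM, Mrpl30 116 and 107 TPM, Mrpl42 111 and 105 TPM and Mrpl51 103 and 106 TPM. Mrpl30 was highest in replicate 1 and Mrpl33 in replicate 2, so the order of these 4 genes was not resolved. In the gene tables a gap separated them from Mrpl12, at 64.4 and 69.1 TPM, which encodes the stalk protein that contacts translation factors. Mrpl15 had 64.0 and 66.5 TPM and Mrpl17 61.3 and 56.5 TPM. The gap was smaller in the second quantification, with means of 139 TPM for Mrpl51 and 117 TPM for Mrpl12. There Mrpl15 had 69.3 TPM and Mrpl17 43.4 TPM.

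At the low end of the large subunit, Mrps30 had 8.82 and 8.19 TPM and Mrpl39 9.37 and 10.04 TPM, both mitochondrion-specific. Mrpl1, which forms the stalk beside the exit site for transfer RNA, had 10.01 and 11.01 TPM, and Mrpl19 had 11.2 and 12.4 TPM. Mrpl45, which lines the exit of the nascent chain tunnel and holds the ribosome to the inner membrane, had 16.3 and 16.1 TPM. Mrpl32, whose precursor is cleaved by the m-AAA protease before it enters the ribosome, had 18.7 and 20.4 TPM. Mrpl58, a peptidyl-tRNA hydrolase that became a ribosomal protein, had 46.6 and 48.6 TPM.

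The 3 genes of the Mrps18 family encode related proteins that occupy different places in the ribosome. Mrps18c was the highest at 34.5 and 36.7 TPM, Mrps18a had 27.7 TPM in both libraries, and Mrps18b had 23.3 and 20.5 TPM. This order was the same in both libraries, and no level of one gene overlapped that of another. Mrps36 had 68.3 and 67.6 TPM, the sixth highest of the 78.

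The 5 mitochondrial ribosomal proteins without an Mrp symbol fell in the same range. Dap3, a GTP-binding protein of the small subunit, had 28.2 and 27.1 TPM, and Ptcd3 had 35.3 TPM in both libraries. Chchd1 had 47.8 and 49.8 TPM, Aurkaip1 36.5 and 36.6 TPM, and Gadd45gip1, of the large subunit, 13.0 and 13.3 TPM. Their median of 35.3 TPM lay above the median of the 78 genes (24.2 TPM) and below their 90th percentile (62.5 TPM).

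Against other gene groups of the same libraries, the set stood well below the proteins of the cytosolic ribosome. The 84 cytosolic ribosomal protein genes had a median of 247 TPM in replicate 1 and 252 TPM in replicate 2, which is 10.2 and 10.8 times the median of the mitochondrial set. The 82 nuclear genes for oxidative phosphorylation subunits had medians of 271 and 265 TPM, or 11.2 and 11.3 times that median. The RNA components were far more abundant: mt-Rnr1, the small ribosomal RNA of the mitochondrion, had 39422 and 34474 TPM, and mt-Rnr2, the large one, 66420 and 59902 TPM. How much ribosomal RNA was removed before sequencing is not known per gene, so these RNA levels are not a stoichiometry. The 13 protein genes of the mitochondrial genome, the templates of this ribosome, had medians of 3497 and 3088 TPM.

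Factors that build the mitochondrial ribosome or serve translation on it had lower medians than its proteins, and genes for handling of messenger RNA and nascent chains did not. The 26 assembly factors had a median of 6.40 TPM in replicate 1 and 6.59 TPM in replicate 2. Malsu1, which keeps the large subunit from joining too early, had 17.7 and 20.3 TPM, and Rbfa, which binds the maturing small subunit, had 15.5 and 17.1 TPM. Dhx30, an RNA helicase, had 14.3 and 16.3 TPM. The 11 translation factors had medians of 10.96 and 11.4 TPM. Tufm, the elongation factor that delivers transfer RNA, was their highest at 65.9 and 65.3 TPM, and Gfm1, the translocase, followed at 41.5 and 43.8 TPM. The 7 handling genes had medians of 26.7 and 25.5 TPM. Among them Slirp had 69.7 and 69.8 TPM, and its partner Lrpprc 29.7 and 29.2 TPM. Afg3l2 and Spg7, the subunits of the m-AAA protease that matures Mrpl32, had 32.0 and 33.8 TPM and 26.7 and 25.5 TPM.

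Levels were closely repeated between the libraries. Over the 78 genes the rank correlation of TPM was 0.991 (Spearman) and the correlation of log2 TPM 0.991 (Pearson). These describe genes of 2 libraries, which are not independent replicates. The log2 difference in TPM, taken on log2(TPM + 1), had an SD of 0.13 over the set and of 0.30 over all genes at 1 TPM or more. The 2 SDs were not matched for level, with medians of 24.2 and 23.4 TPM in the set and 7.43 and 7.08 TPM over all those genes.

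Counts were then compared between the libraries. A two-sided exact binomial test asked of each gene whether its counts differed beyond counting error, after TMM scaling, with Benjamini-Hochberg adjustment over 17245 genes. Of the 78 genes, 13 were called higher in replicate 2 and 0 in the other direction, where 10.9% and 10.6% of all tested genes were called in these directions. The 13 calls, 9 in the large and 4 in the small subunit, came to 16.7% of the set, near the 14.8% called higher in replicate 2 among genes at 1 TPM or more. An unadjusted p under 0.05 was found for 23 of the 78 (29.5%), against 37.8% of genes at 1 TPM or more. Over the set, 65 of 78 differences were above 0, or 83.3%, against 52.1% of all genes at 1 TPM or more. The median log2 difference was 0.09 for the set and 0.01 for all genes at 1 TPM or more.

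The changes were small. Mrpl36, a small zinc-binding protein of the large subunit, had 428 counts in replicate 1 and 496 in replicate 2, or 16.3 and 20.3 TPM. Its log2 difference was 0.36 (adjusted p = 0.00119 by the binomial test), the largest of those above 0. Its intervals from the quantifier, 14.8 to 17.9 TPM and 18.4 to 21.95 TPM, were the only ones of the 78 genes (1.28%) that did not overlap between the libraries, against 13.2% of genes at 1 TPM or more. Mrps17, an early-binding small subunit protein, had 845 and 932 counts (29.1 and 31.2 TPM) and a log2 difference of 0.29 (adjusted p = 0.000211, binomial test). Mrpl47 had 693 and 763 counts and the same log2 difference of 0.29 (adjusted p = 0.00115, binomial test), but its TPM was nearly level at 16.3 and 16.6.

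The other 10 called genes had log2 differences between 0.13 and 0.23. Mrps2 and Mrpl19 each had 0.23, Mrps21 0.21, Mrpl35 0.20, and Mrps7, Mrpl18 and Mrpl12 each 0.16. Mrpl2 had 0.14, and Mrpl37 and Mrpl51 each 0.13. In TPM, 12 of the 13 were higher in replicate 2. The exception was Mrps7, which binds early to the head of the small subunit, with 28.71 and 28.65 TPM. The lowest difference was that of Mrpl23 at -0.77, which was not called (adjusted p = 0.065 by the binomial test). None of the 78 genes differed 2-fold in counts.

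**Figure D2:**
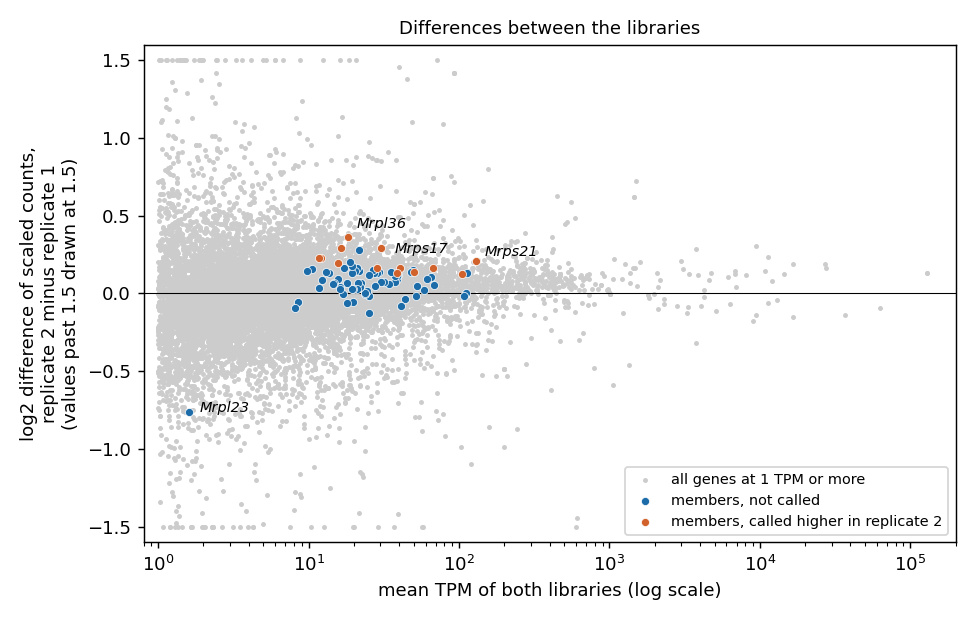
Log2 difference of TMM-scaled counts, replicate 2 minus replicate 1 (vertical), against mean TPM on a log axis (horizontal), for all genes at 1 TPM or more (grey), members not called (blue) and the 13 called higher in replicate 2 (orange). The members lie in a narrow band, mostly above 0, with Mrpl23 below the others.

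The direction of these differences rested on the scaling of the libraries. When counts were scaled by the added ERCC RNAs instead, the median difference of all tested genes shifted from -0.01 to -0.30 (log2). Under that scaling 0 of the 78 genes were higher in replicate 2 and 47 were lower there, where 1.72% and 50.8% of all genes were called. Relative to the median of all tested genes, the set stood 0.10 higher (log2), a value that scaling a library cannot change. Total counts gave 7 calls higher in replicate 2.

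Related gene groups and cell markers moved between the same libraries. Of the cytosolic ribosomal protein genes, 53 of 82 tested were called higher in replicate 2 and 0 lower, and of the nuclear oxidative phosphorylation genes 37 of 80 and 0. These came to 64.6% and 46.3%, against 14.8% called higher among genes at 1 TPM or more. Their median log2 differences were 0.11 and 0.06, against 0.09 for the members. The test calls smaller differences at higher counts, so these shares do not rank the groups by size of shift. The mitochondrially encoded genes went the other way, with 1 of 13 called higher in replicate 2 and 10 called lower there, and both mitochondrial ribosomal RNAs were also called lower in that library. All 8 fast muscle markers, all 3 erythroid markers and all 3 adipocyte markers were called higher in replicate 2. Of 4 fibroblast markers, 3 were called lower and 1 higher in replicate 2. Also called lower there were 2 of 5 endothelial, 1 of 4 slow muscle, 1 of 4 macrophage and 1 of 3 smooth muscle markers. Of 3 Schwann cell markers 1 was called higher, and the 1 lymphocyte marker tested was not called. All of these calls used the TMM scaling. The part of these shifts in the members' differences was not tested.

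Among 10 known regulators of genes for mitochondrial proteins, 4 were called by the binomial test, 3 higher and 1 lower in replicate 2. Over the 12078 tested genes at 1 TPM or more, 1784 (14.8%) were called higher and 1554 lower there. Ppargc1a, a coactivator that drives mitochondrial biogenesis in muscle, had 19.9 TPM in replicate 1 and 10.6 in replicate 2, a log2 difference in counts of -0.73 (adjusted p = 2.9e-46). Its relative Ppargc1b had 6.22 and 8.13 TPM and a difference of 0.67 (adjusted p = 6.7e-17). Pprc1, the third of that family, differed by 0.26, and Esrra, a nuclear receptor they bind, by 0.20. The DNA-binding factors Nrf1, Gabpa and Yy1 were not called, with 4.62 and 5.22 TPM, 11.5 and 10.1 TPM, and 11.2 and 10.97 TPM. Outside the regulators the lists held few calls, all higher in replicate 2: Mtg1, a GTPase of large subunit assembly, among 26 assembly factors (0.25), Gfm1 among 11 translation factors (0.10) and Afg3l2 among 7 handling genes (0.13). None of the 5 ribosomal proteins without an Mrp symbol was called, and all 5 differences were above 0.

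Promoter sequences were available from RefSeq (GRCm38.p6) for 69 of the 78 genes, each from 250 bases before to 50 bases after an annotated start. For 54 of them the start lay within 100 bases of the start of the gene's leading protein-coding transcript. That is the protein-coding transcript with the highest level in a second transcript quantification. Each window was searched on both strands for short cores of sites known for nuclear genes of mitochondrial proteins: CGCATGCG for Nrf1, CCGGAAG for the ETS family that includes Gabpa, and AAGATGGC for Yy1, and for TATAAA. The ETS and the Yy1 core can share the letters AAG, which no window of a member showed. A match is a description of the letters and not a shown binding site.

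The ETS core stood in 25 of 69 windows (36.2%), against 12.5% of 16522 protein-coding genes and 19.5% of those at 1 TPM or more. The Yy1 core stood in 12 windows (17.4%, against 3.30% and 5.04%) and the Nrf1 core in 7 (10.1%, against 2.70% and 4.27%). At least one of these 3 cores was present in 37 windows (53.6%), against 17.2% of all and 26.5% of expressed protein-coding genes. TATAAA was found in 4 windows (5.80%), against 12.8% and 6.69%. Windows of cytosolic ribosomal protein genes held the ETS core at a like share (37.5% of 64) and the Yy1 core in 7.81%. Windows of 66 nuclear oxidative phosphorylation genes held the Nrf1 and the Yy1 core in 13.6% each and the ETS core in 24.2%. The median GC content was 58.3% for the members and 61.7% for expressed protein-coding genes, which was not matched for in these shares.

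Of the 69 windows, 12 held 2 or more of these matches and 7 held 2 different cores. The following 5 of these 7 are shown as examples of each such combination, and were picked after the matches were seen. They are written 5′ to 3′ along the gene's strand, with the matches to the Nrf1, ETS and Yy1 cores, on either strand, in capitals. Mrpl32 (chr13:14612988-14613287, minus strand) holds the Nrf1 core at 2 places and the Yy1 core near its upstream end. Mrpl17 (chr7:105811038-105811337, minus strand) holds the ETS and the Nrf1 core. Mrps12 (chr7:28741772-28742071, minus strand), a decoding-centre protein, Mrps27 (chr13:99344536-99344835, plus strand) and Mrps18a (chr17:46110754-46111053, plus strand) each hold the ETS and the Yy1 core.
Mrpl32: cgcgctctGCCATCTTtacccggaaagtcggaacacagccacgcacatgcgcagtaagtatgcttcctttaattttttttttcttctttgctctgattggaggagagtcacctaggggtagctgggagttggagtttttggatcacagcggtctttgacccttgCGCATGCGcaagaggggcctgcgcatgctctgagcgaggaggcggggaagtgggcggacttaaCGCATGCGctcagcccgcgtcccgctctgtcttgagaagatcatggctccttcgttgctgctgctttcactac
Mrpl17: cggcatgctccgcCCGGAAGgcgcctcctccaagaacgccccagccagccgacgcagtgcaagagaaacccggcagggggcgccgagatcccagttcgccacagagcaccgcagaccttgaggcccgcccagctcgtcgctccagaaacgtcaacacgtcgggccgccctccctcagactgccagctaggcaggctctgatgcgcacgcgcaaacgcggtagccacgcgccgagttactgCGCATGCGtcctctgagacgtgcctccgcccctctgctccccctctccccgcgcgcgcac
Mrps12: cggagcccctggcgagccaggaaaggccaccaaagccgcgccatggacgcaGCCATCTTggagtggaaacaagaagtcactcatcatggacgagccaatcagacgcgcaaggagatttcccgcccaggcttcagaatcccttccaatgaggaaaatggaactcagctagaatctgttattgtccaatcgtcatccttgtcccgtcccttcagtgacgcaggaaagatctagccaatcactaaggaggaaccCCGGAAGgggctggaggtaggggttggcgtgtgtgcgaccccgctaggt
Mrps27: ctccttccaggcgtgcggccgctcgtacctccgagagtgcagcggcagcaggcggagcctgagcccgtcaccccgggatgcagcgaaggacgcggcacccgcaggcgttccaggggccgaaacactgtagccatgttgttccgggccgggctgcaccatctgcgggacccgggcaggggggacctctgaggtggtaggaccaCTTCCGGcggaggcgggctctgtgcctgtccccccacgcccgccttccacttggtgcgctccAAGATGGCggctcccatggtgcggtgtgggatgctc
Mrps18a: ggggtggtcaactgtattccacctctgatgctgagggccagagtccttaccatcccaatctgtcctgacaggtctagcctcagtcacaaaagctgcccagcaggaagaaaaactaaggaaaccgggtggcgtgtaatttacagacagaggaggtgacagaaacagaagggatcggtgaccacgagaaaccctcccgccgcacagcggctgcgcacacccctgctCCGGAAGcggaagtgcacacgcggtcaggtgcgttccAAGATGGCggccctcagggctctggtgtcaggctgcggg

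In Mrps27 and Mrps18a the Yy1 core lies near the downstream end of the window, next to the annotated start. The same holds for the windows of Mrpl35, Mrpl37, Mrpl42, Mrpl49, Mrps7 and Mrps24, which are not shown. This core contains the letters ATG, so such a match may overlap a start codon, which was not examined. The shares of windows with the Yy1 core do not set such matches apart. Levels of the 5 genes with windows shown ranged from 13.2 and 14.0 TPM for Mrps27 to 61.3 and 56.5 TPM for Mrpl17. Members with the ETS core had a median level of 29.6 TPM and those without it 20.04 TPM. For the Yy1 core the medians were 20.3 TPM with and 23.5 TPM without, and for the Nrf1 core 19.7 and 24.4 TPM. These medians carry no test.

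Many of the genes start beside a gene read in the opposite direction. A protein-coding gene on the other strand with its annotated 5′ end within 1000 bases was found for 33 of the 78 genes (42.3%). The share was 10.8% of 22028 protein-coding genes and 16.6% of the 11090 at 1 TPM or more. One such pair, Mrpl46 and Mrps11 on chromosome 7, joined 2 members of the set, from the large and the small subunit. Mrpl46 had 16.4 and 16.2 TPM and Mrps11 11.6 and 12.03 TPM.

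Several neighbours are themselves genes for mitochondrial or ribosomal proteins. Mrpl36 stood beside Ndufs6 and Mrpl47 beside Ndufb5, both of which encode subunits of respiratory complex I. Ndufs6 had 169 and 168 TPM and Ndufb5 246 and 251 TPM, well above the members beside them. Mrpl49, at 13.1 and 13.0 TPM, stood beside Fau, the precursor of a cytosolic ribosomal protein, at 217 and 214 TPM. Mrps12 at 21.7 and 20.4 TPM stood beside Sars2, the mitochondrial seryl-tRNA synthetase, at 8.58 and 8.28 TPM, and Mrpl43 at 14.9 and 14.7 TPM beside Twnk, the mitochondrial DNA helicase, at 7.18 and 7.56 TPM. Mrps27 at 13.2 and 14.0 TPM stood beside Ptcd2 at 11.3 and 10.6 TPM.

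A neighbour did not need to be expressed. The member was above its neighbour in both libraries in 27 of the 33 cases, and 26 neighbours reached a mean of 1 TPM. Mrpl30 had 116 and 107 TPM beside Mitd1 at 0.99 and 0.78 TPM, and Mrpl10 had 19.9 and 19.5 TPM beside Lrrc46 at 0.03 and 0.05 TPM. Of the neighbours, 5 were called higher and 1 lower in replicate 2 by the binomial test. Lrrc46, Oaz3 and B430218F22Rik had too few counts to be tested. The shares over all tested genes were 10.9% and 10.6%, and 14.8% were called higher among genes at 1 TPM or more. The protocol described in the labels does not say whether strand was used in counting, so reads of overlapping neighbours may have been divided between them.

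**Figure D3:**
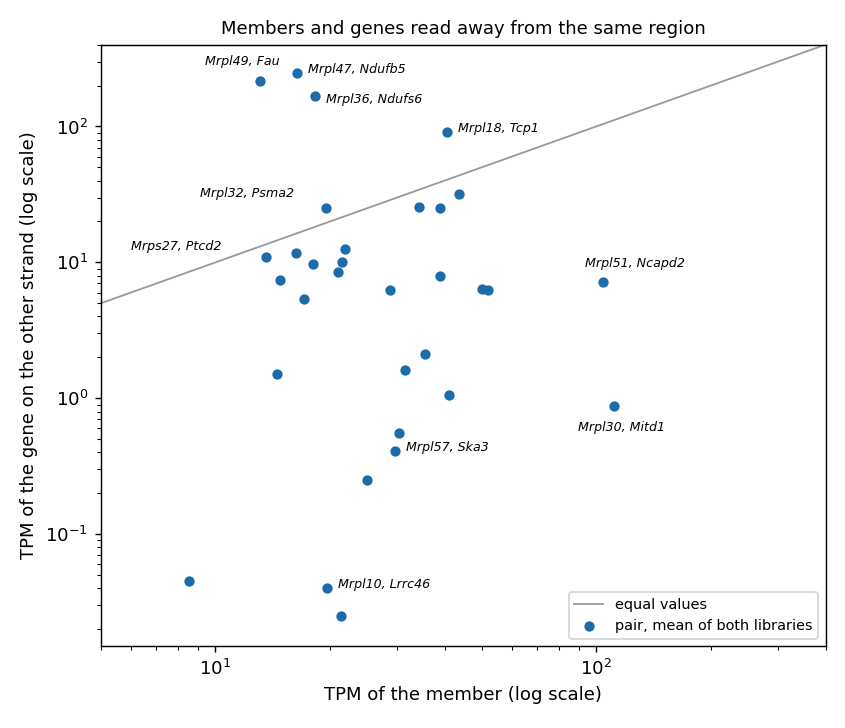
Mean TPM of each member (horizontal) and of the protein-coding gene on the other strand whose start lies within 1000 bases (vertical), both on log axes, with the pair of Mrpl46 and Mrps11 drawn once. Most points lie below the line of equal values, and Mrpl47, Mrpl49 and Mrpl36 lie far above it.

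The transcripts to which reads were given differed among the genes. Transcripts annotated as protein-coding took 77.0% and 76.9% of the TPM of the set, processed transcripts 8.54% and 8.56%, transcripts with a retained intron 8.18% and 7.70%, and transcripts annotated for nonsense-mediated decay 6.27% and 6.88%. In the median gene, protein-coding transcripts took 96.7% of TPM. In 18 of 78 genes (23.1%) they took under 50%, against 7.20% of 11077 protein-coding genes at 1 TPM or more.

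In 17 of these 18 genes the most abundant transcript was shorter than the leading protein-coding one, and Mrpl3 was the exception. For Mrpl51 the protein-coding transcript of 3427 bases took 2.11% and 2.63% of TPM, and a processed transcript of 855 bases 69.1% and 68.2%. For Mrps16 the 2572-base protein-coding transcript took 3.48% and 3.72%, and a processed transcript of 801 bases 96.5% and 96.3%. For Mrpl57 a retained-intron transcript of 519 bases took 96.0% and 96.1%, and for Mrps26 one of 1057 bases 95.8% and 95.6%. In Mrpl32 a transcript of 658 bases annotated for nonsense-mediated decay took 84.1% and 85.6%. These annotations are labels of the models, and whether such RNAs are translated was not measured.

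The second transcript quantification, made directly from the reads, also put 18 genes under 50%, against 9.80% of protein-coding genes at 1 TPM or more. In both quantifications, 14 genes were under 50%. Mrpl51, Mrps16, Mrpl57, Mrps26, Mrpl32, Mrps25, Mrps24, Mrpl15, Mrpl3, Mrpl19, Mrpl35, Mrps5, Mrpl47 and Mrps35 were these 14. Mrps14 and Mrps11 turned over: protein-coding transcripts of Mrps14 took 6.36% and 2.71% in the first table and 80.9% and 90.3% in the second, and those of Mrps11 48.0% and 32.0% against 96.7% and 92.1%. Mrpl33 and Mrpl17 went the other way. A processed transcript of Mrpl33 took 52.9% and 51.4% in the second table and 0.51% and 0.23% in the first, and a transcript of Mrpl17 for nonsense-mediated decay took 89.1% and 88.7% against 21.6% and 26.6%.

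**Figure D4:**
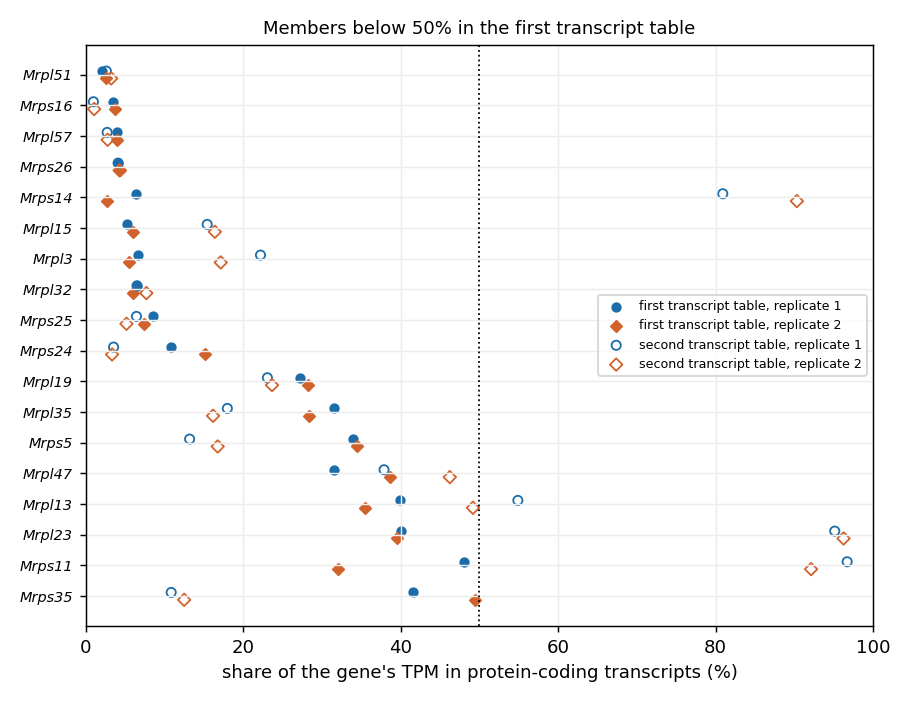
Share of the gene's TPM in protein-coding transcripts (horizontal, %) for the 18 genes with a mean under 50% in the first transcript table; filled symbols are the first and open symbols the second table, circles replicate 1 and diamonds replicate 2. Mrps14, Mrps11 and Mrpl23 are far above 50% in the second table in both libraries, and Mrpl13 lies on either side of it.

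Gene levels were compared between the gene table and the second quantification summed per gene. The second gave higher TPM values, with a median ratio of 1.43 and 1.46 for the members and of 1.34 in both libraries for all genes. It was above the gene table in both libraries for 75 members and below it in both for 2, Mrpl17 and Mrps5. In 6 members it was over 2-fold above in both libraries, and in 0 over 2-fold below, where 4.02% and 4.21% of all genes were. The ranks of the mean levels correlated at 0.877 (Spearman, over the 78 genes), and at 0.937 without Mrpl23.

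The 6 genes were Mrpl23, Mrpl27, Mrpl3, Mrpl22, Mrps10 and Mrpl35. Mrpl27 had 26.6 and 23.5 TPM in the gene table and 79.2 and 67.1 TPM in the second quantification. Mrpl3, which lies close to the site of peptide bond formation, had 37.4 and 39.5 TPM against 85.9 and 83.3 TPM. Mrpl22, of the nascent chain tunnel, had 19.8 and 19.2 TPM against 44.8 and 44.0 TPM. Mrps10 had 16.6 and 17.2 TPM against 35.8 and 35.7 TPM, and Mrpl35 14.3 and 16.9 TPM against 29.1 and 34.0 TPM.

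**Figure D5:**
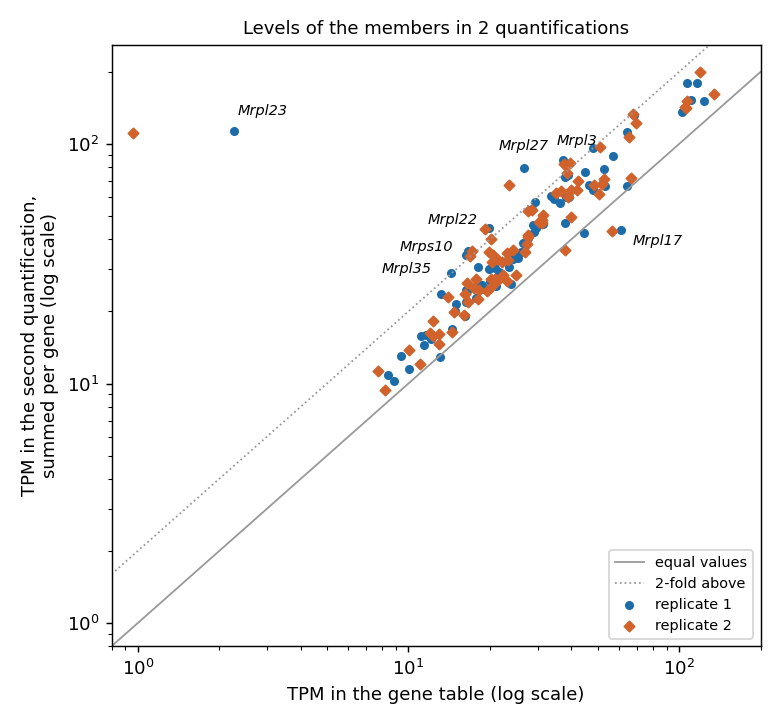
TPM of each member in the second quantification (vertical) against the gene table (horizontal), both on log axes, with circles for replicate 1 and diamonds for replicate 2; the solid line marks equal values and the dotted line 2-fold above. Mrpl23 lies far above the lines, at 2.26 and 0.96 TPM against 113 and 111 TPM.

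Mrpl23 was the extreme case. Its protein lies at the exit of the nascent chain tunnel. The gene is on chromosome 7 (GRCm38, 142532686 to 142540747, plus strand) and had 58.7 and 30.5 expected counts in the gene table, or 2.26 and 0.96 TPM. The second quantification gave it 113 and 111 TPM, among the 10 highest of the set in that quantification. Its processed pseudogene on chromosome 2, Mrpl23-ps1, had 72.9 and 70.9 TPM in the gene table and was listed at 0 in both libraries of the second quantification. The tables divided the reads between the gene and this copy in opposite ways, so the level of Mrpl23 is uncertain. In the gene table the 0.96 TPM of replicate 2 lies below the lower bound of its own interval (1.15 TPM).

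The sequences of the annotated transcripts allowed no distinction over most of the gene. The main Mrpl23 transcript (692 bases) and the pseudogene transcript (580 bases) aligned over 540 bases with 100% identity. This includes all 438 coding bases. Of the stretches of 31 bases in the Mrpl23 transcript, 77.0% occur in the pseudogene. The first 60 coding bases are shown because they stand in both transcripts without a difference, with nothing in capitals.
Mrpl23 and Mrpl23-ps1: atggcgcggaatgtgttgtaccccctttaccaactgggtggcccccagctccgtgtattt

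Other genes of the set share sequence with copies elsewhere or with gene models that overlap them. At least 10% of the 31-base stretches of the leading protein-coding transcript were shared with another gene for 19 members, over 23 such genes. Of these, 18 were processed pseudogenes, and the others were gene models on the same strand at the member's own locus. A mean of 1 TPM was reached by 6 of these genes, 5 of them pseudogenes and the other Slc5a3, a protein-coding gene at the locus of Mrps6. Gm5776, a copy of Mrps33, had 9.32 and 10.1 TPM, and Mrpl48-ps had 7.95 and 6.65 TPM, both listed at 0 in the second quantification. AC154457.3, a copy of Mrps10, had 4.28 and 6.25 TPM and kept 6.29 and 9.58 TPM in the second. Gm13328, a copy of Mrps5, had 2.09 and 3.01 TPM and was listed at 0 in the second. All of Mrpl53 was contained in Gm42688, an overlapping protein-coding gene model with 0.45 and 0.22 TPM. The second quantification gave that model 4.14 and 4.43 TPM. Values of these members are uncertain to the extent that reads were divided with the copies or the overlapping models.

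Level and transcript length went together within the set. The mean TPM had a rank correlation of -0.46 with the length of the leading protein-coding transcript, and the ratio of the second quantification to the gene table one of -0.50 (Spearman, over 78 genes of 2 libraries). Both quantities are computed with transcript length, so this is a description only.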

How the data were processed

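Total RNA-seq of 2 libraries of 1 group was analysed. The authors deposited expected counts (estimated, not whole) and TPM per gene and per transcript, and a second transcript table of estimated counts and TPM. The quantifier's bounds of the TPM, a signal column, are as deposited in the authors' gene table. The build was mm10 per the labels, and identifiers matched GENCODE M21; the aligner was not given in the sources used here, nor were the quantifiers.

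The members and lists were chosen with earlier results of these data known. Expected counts were rounded, scaled by TMM (edgeR 4.0.16, R 4.3.3) and tested with a two-sided exact binomial test (scipy 1.17.1), applied where both libraries together had 10 or more counts, with Benjamini-Hochberg adjustment at 0.05. Log2 differences of counts used a prior of 0.5, those of TPM a pseudocount of 1. DESeq2 1.42.0 size factors served as an alternative, as did ERCC totals, total counts, other minimums and the second quantification. The binomial test was tested on simulated data. It covers counting error only. The 26248 entries with numeric identifiers and 97 added RNAs were left out of gene tests. Motifs and 31-base stretches were matched exactly, and coordinates are GRCm38.

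Named genes were the 10 highest and 8 lowest members, the 8 largest called differences in each direction, members over 2-fold apart between the quantifications, the Mrps18 genes, members under 50% in protein-coding transcripts, and Mrpl12, Mrpl32, Mrpl45, Mrps36, Mrpl58 and Mrps30. From lists of up to 6 genes all were named, and from longer ones the 4 highest and those called. Other genes named, such as neighbours, copies, regulators and the promoters shown, were chosen after their values were seen.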

Additional observations from a re-analysis of the deposited data

How the results depend on the processing

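With 2 libraries of 1 group, the spread of each gene rests on 1 difference. No paired analysis was possible because the series holds 1 group. The count of 13 members higher in replicate 2 and 0 higher in replicate 1 became 7 and 0 with total counts, and 0 and 47 with ERCC totals. It was 13 with DESeq2 size factors and with a minimum of 50 counts, 10 with no minimum and 16 with the second quantification, which shared 10 calls. The median log2 difference in TPM of the members, 0.05, became -0.19 with ERCC totals, where that of all genes at 1 TPM or more was -0.25; the cause was not tested.

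The median level of 24.2 TPM ranged from 23.4 to 24.2 when either library was left out, and was 36.2 with the second quantification and 51.7 when rescaled over nuclear protein-coding genes. For the large subunit, at 23.5 TPM, these were 23.1 to 23.6, 36.7 and 50.2, and for the small subunit, at 24.5 TPM, 24.1 to 24.9, 34.7 and 52.2. The rescaling has a smaller denominator by construction, and the cause of the other shift was not tested. The number of members at 1 TPM or more was 77 without replicate 1 and 78 otherwise. The median protein-coding share of 96.7% was 94.2% in the second transcript table. Shares of promoters with a motif moved within their binomial intervals with a window of 200 bases before the start. Of 42 named members, 41 moved beyond their SD with the second quantification and 42 with the rescaling. Leaving out a library moved Mrpl23 by 1.68-fold (1.61 TPM, and 0.96 without replicate 1) and the other named members by at most 1.12-fold.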
